A study of Mus musculus with 48 samples.

Results

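Expression of the insulin-like growth factor (IGF) system was followed in whole mouse tibiae through 9 genes of the 29801 in the table: the ligand gene Igf1, the receptor genes Igf1r and Igf2r, the binding protein genes Igfbp2, Igfbp3, Igfbp4, Igfbp5 and Igfbp6, and the related gene Igfbp7. The genes were picked by symbol as a family, and the family was chosen on earlier results of these same 12 mice, including values of Igfbp3 and Igfbp5. The differences of the 9 genes between groups are therefore given as a description. All 9 were found, and 8 of them had a mean of 1 FPKM or more over the 12 mice, the filter used. FPKM is a fragment count scaled for transcript length and for library size. Igfbp2 did not pass and was not tested.
IGF-I is a peptide hormone made in the liver and, locally, in bone and marrow. It acts through the IGF-I receptor, while the IGF-II receptor takes IGF-II to the lysosome and has no signaling kinase of its own. In extracellular fluid most IGF is held by secreted IGF-binding proteins, which prolong its life and control how much of it reaches the receptor, and growth hormone raises Igf1 transcription through its receptor, JAK2 and STAT5. In bone, IGF-I promotes osteoblast activity and growth of the cartilage plate.
The 12 animals were male C57Bl6J mice, with no genetic alteration given, 3 in each of the groups young CR, young AL, aged CR and aged AL. CR was caloric restriction for 8 weeks, in which food was cut by 10% in week 1, by 20% in week 2 and by 40% thereafter. AL mice had free access to food. The series text gives an age of 10 weeks for young mice and 15 to 18 months for the older ones, called aged here. Ages refer to the start of the diet, and tissue was taken at its end, 8 weeks later. All mice lived in single cages, CR mice ate a version of the control diet enriched in micronutrients, and their ration came shortly before the dark phase, so diet composition and meal timing cannot be told apart from the amount of food. The study also operated on tibiae during the diet, and whether the sequenced bones came from operated mice could not be told from the text and layout read here.
Although 48 libraries are labelled, 4 to a mouse as technical repeats, the table has 1 column per mouse, so each mouse counted once. Values were quantile normalized by the authors and summed to 636210 FPKM in each mouse. Whole-bone RNA mixes several tissues, and markers of bone cells were detected beside 4 erythroid markers that summed to at least 105400 FPKM in every mouse. Summed levels ranged from 529.4 to 2373 FPKM for 12 osteoblast and osteocyte markers, from 298.5 to 704.8 FPKM for 8 marrow stromal markers and from 110.8 to 799.7 FPKM for 5 skeletal muscle markers. Aged AL mouse 14 had the lowest osteoblast and stromal sums and the highest muscle sum.

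Promoters are shown for Igfbp3, Igfbp4 and Igfbp5, the binding protein genes higher in young CR mice without overlap, and for Igfbp7, which was level. They were picked by these values, so nothing is read from how their motifs differ. Igf1 and Igf2r were also higher there without overlap and are not shown. Over the 250 bases searched, Igf2r held GC boxes and Igf1 held none of the searched motifs. RefSeq promoter entries (GRCm38.p6) were found for all 9 genes, 10 start sites in all, since Igfbp2 has 2. The last 100 bases before the start site are given 5′ to 3′ on the strand of the gene, and capitals mark the searched TATA-like motifs and GC boxes of either strand.
Igfbp3: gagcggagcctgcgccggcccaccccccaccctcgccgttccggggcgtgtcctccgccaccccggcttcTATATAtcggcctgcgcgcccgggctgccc
Igfbp4: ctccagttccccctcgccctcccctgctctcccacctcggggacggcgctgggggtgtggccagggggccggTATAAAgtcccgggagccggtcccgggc
Igfbp5: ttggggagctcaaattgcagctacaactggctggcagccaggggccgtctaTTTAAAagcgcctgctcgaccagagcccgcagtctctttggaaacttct
Igfbp7: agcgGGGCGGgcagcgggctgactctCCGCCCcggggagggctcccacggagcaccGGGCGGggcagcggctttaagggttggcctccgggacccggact
These lie at chr11:7213924-7214023 on the minus strand (Igfbp3), chr11:99041144-99041243 on the plus strand (Igfbp4), chr1:72874866-72874965 on the minus strand (Igfbp5) and chr5:77408046-77408145 on the minus strand (Igfbp7). TATATA ended 24 bases before the start of Igfbp3, TATAAA 22 bases before that of Igfbp4 and TTTAAA 43 bases before that of Igfbp5. These are RefSeq starts. In the GENCODE annotation given below, Igfbp5 begins at 72874884, inside the printed bases, so its distance depends on the start used. Over the 250 bases before the start, on both strands, TATATA was held by 5.25% of 32851 RefSeq promoters, TATAAA by 12.4% and TTTAAA by 12.1%. GGGCGG, the GC box, was held by 32.7% of them and, among the members, by Igf1r, Igf2r, Igfbp2 and Igfbp7. Igfbp6 held TATAAA only on the opposite strand, 142 bases before its start. The forkhead motif GTAAACA and the STAT motif TTCNNNGAA were held by 3.17% and 7.02% of promoters and by none of the 10 start sites of the 9 genes. The glucocorticoid receptor motif AGAACA was held by 16.1% of promoters and, of the members, by Igfbp2. No matches of different motifs shared bases in the members. A match of letters is a description and not a binding site.
By the GENCODE M21 annotation (GRCm38), all 9 are protein-coding genes. Igfbp2 (chromosome 1, 72824503 to 72852474) and Igfbp5 (chromosome 1, 72857932 to 72874884) stand tail to tail with 5457 bases between them. Igfbp3 (chromosome 11, 7206086 to 7213923) has Igfbp1 as its neighbour, 3539 bases away. Igfbp4 lies on the same chromosome (99041244 to 99054392), Igf1 on chromosome 10 (87858265 to 87937042), Igf1r on chromosome 7 (67952827 to 68233668), Igf2r on chromosome 17 (12682406 to 12769664), Igfbp6 on chromosome 15 (102144362 to 102149511) and Igfbp7 on chromosome 5 (77349240 to 77408041). Igf1 and Igf2r share sequence with an antisense gene, Igf1 with Igf1os over 5117 bases and Igf2r with Airn over 28354 bases. Igf1os stayed at 0.37 FPKM or less in every mouse. Airn was at 0.725 to 1.85 FPKM. The libraries were stranded, but no source read here says whether quantification used the strand, so the Igf2r level is uncertain.

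Per kilobase of transcript, 3 binding protein genes made up most of the signal. Igfbp4 averaged 79.0 ± 12.7 FPKM over the 12 mice, Igfbp7 60.8 ± 5.17, Igfbp5 25.7 ± 6.50 and Igf1 8.63 ± 1.90 FPKM (SD, n = 12). Igfbp3 followed at 5.95 ± 3.63 FPKM, Igfbp6 at 4.73 ± 1.21, Igf1r at 3.80 ± 0.490, Igf2r at 2.73 ± 0.272 and Igfbp2 at 0.672 ± 0.263 FPKM. In this order Igfbp7 exceeded Igfbp5, Igfbp5 exceeded Igf1, Igf1r exceeded Igf2r and Igf2r exceeded Igfbp2 in 12 of 12 mice. Igfbp4 exceeded Igfbp7 in 11 of 12, all but aged AL mouse 14. The middle of the order depended on the diet. Igf1 exceeded Igfbp3 in 3 of 6 CR mice and in 6 of 6 AL mice, and Igfbp3 exceeded Igfbp6 in 6 of 6 CR mice and in 1 of 6 AL mice. Igfbp6 exceeded Igf1r in 9 of 12 mice, so these neighbours did not differ beyond their spread.

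**Figure D1:**
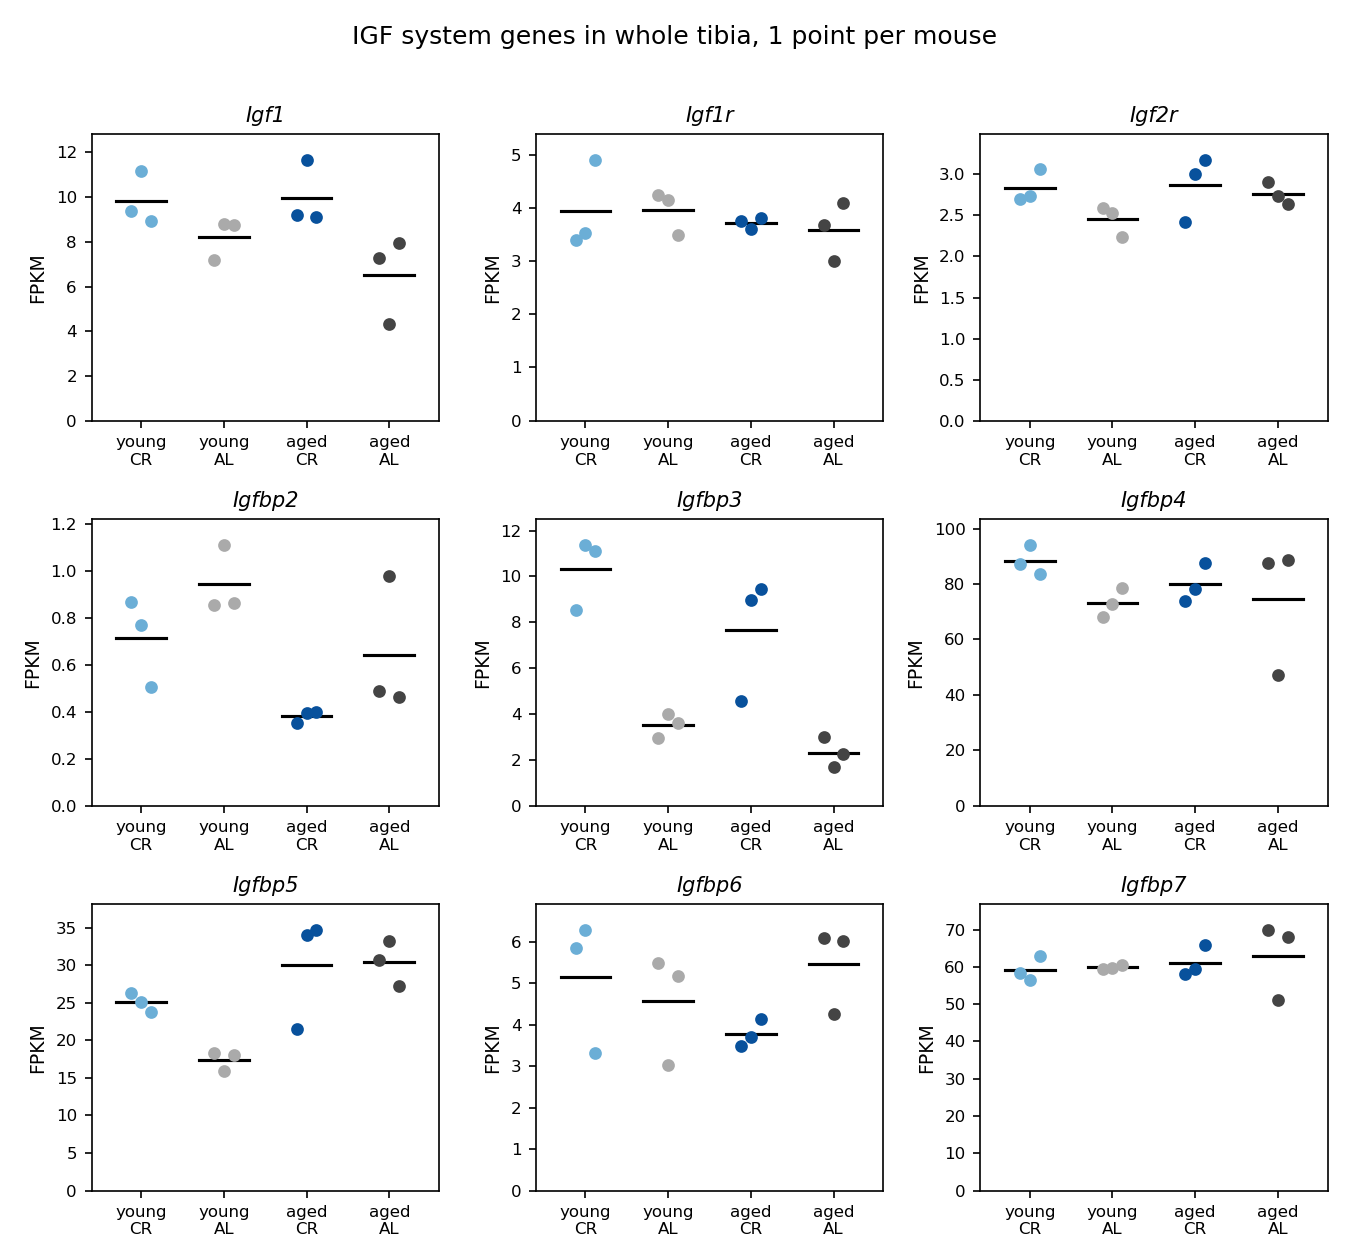
FPKM of the 9 genes (y axis of each panel, starting at 0) in young CR, young AL, aged CR and aged AL mice, with 1 point per mouse and a line at the group mean. Igfbp3 is higher in CR than in AL mice at both ages with no overlap, Igfbp5 is lowest in young AL mice, and Igf1r and Igfbp7 are level across the groups.

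IGFBP-3 is the main carrier of IGF in blood, where it forms a complex with IGF and the acid-labile subunit, and its gene differed most between diets among the members. Igfbp3 was at 8.55, 11.4 and 11.1 FPKM in young CR mice, against 2.96, 3.99 and 3.59 FPKM in young AL mice. It was at 4.56, 8.96 and 9.44 FPKM in aged CR mice, against 3.0, 1.66 and 2.25 FPKM in aged AL mice. Every CR mouse was above every AL mouse, of either age, and aged CR mouse 5 was the lowest of the CR mice. Group means were 10.3 ± 1.55 and 3.51 ± 0.522 FPKM in young CR and young AL mice, a 2.94-fold difference, and 7.65 ± 2.69 and 2.30 ± 0.668 FPKM in aged CR and aged AL mice, a 3.32-fold difference (SD, n = 3 each). As CR minus AL on the log2(FPKM + 1) scale, which understates changes of low genes, this was 1.33 (standard error 0.23) in young and 1.35 (standard error 0.23) in aged mice. The interaction of diet and age, the aged minus the young difference, was 0.03 (standard error 0.33). The difference of aged minus young mice was -0.45 (standard error 0.16), in overlapping groups, with Igfbp3 at 0.74 times the mean of young mice under CR and 0.656 times under AL.
As a share of the summed FPKM of Igfbp2 to Igfbp7, Igfbp3 made up 4.57% to 6.01% in young CR mice, against 1.91% to 2.55% in young AL mice. In aged mice the share was 2.82% to 4.85% under CR, against 1.17% to 1.51% under AL. The ratio of Igfbp3 to Igf1 was 0.913 to 1.24 in young CR mice, against 0.41 to 0.455 in young AL mice. In aged mice it was 0.496 to 1.04 under CR, against 0.283 to 0.412 under AL. The CR groups were above the AL groups without overlap on these scales too. Both scales use the same Igfbp3 values, so they are a description and no separate support.
Markers of adipocytes moved with Igfbp3. The summed level of 8 adipocyte markers (Adipoq, Plin1, Cidec, Retn, Cfd, Lep, Fabp4 and Lpl) was 605.7 to 822 FPKM in young CR mice, against 321.5 to 357.3 FPKM in young AL mice. In aged mice it was 605.6 to 995.2 FPKM under CR, against 304.5 to 571.7 FPKM under AL. Of the 7 tested markers, 7 were higher in young CR mice and 5 in aged CR mice with no overlap between diets. The shares over all genes tested were 10.1% and 5.7%. The median log2 differences of these markers were 1.25 and 1.01. None of the 8 was listed at 0 in any mouse, and Lep was the lowest, at 0.157 to 1.12 FPKM. Set against this sum, Igfbp3 was 1.08 to 1.84 FPKM per 100 FPKM of adipocyte markers in young CR mice, against 0.919 to 1.15 in young AL mice, and these ranges overlapped. In aged mice the ratio was 0.752 to 1.0 under CR, against 0.434 to 0.546 under AL, without overlap. Fabp4 and Cfd, with means of 330 and 146 FPKM over all mice, weighed most in the sum. In aged mice the fold of means between diets ran from 1.56 (Fabp4 and Lpl) to 4.62 (Retn). Only Retn exceeded the 3.32 of Igfbp3. The ratio therefore depends on which markers are summed. Other marker lists moved with Igfbp3 in part. After subtracting group means, its Pearson r with the mean log2 level was 0.75 for adipocyte and 0.73 for stromal markers, whose sums overlapped between diets. By mean log2 level, macrophage markers were higher under CR without overlap in aged mice only, and endothelial markers in young mice only. The part of adipocyte number or of these lists in the Igfbp3 difference was not tested. In bulk RNA more cells of a type cannot be told apart from more RNA per cell.

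**Figure D2:**
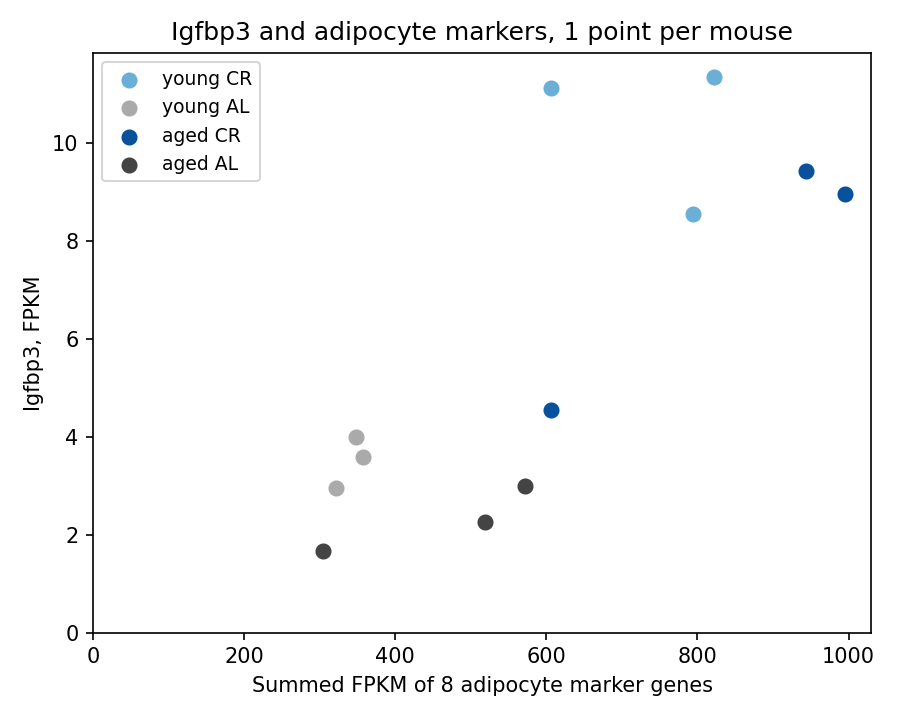
Igfbp3 (y axis, FPKM) against the summed FPKM of 8 adipocyte markers (x axis), with 1 point per mouse in young CR, young AL, aged CR and aged AL groups. The 6 CR mice lie at 605.6 FPKM of markers or more and at 4.56 FPKM of Igfbp3 or more, and the 6 AL mice lie below both values.

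The ligand was higher under CR as well, by less. Igf1 was at 9.37, 11.2 and 8.94 FPKM in young CR mice, against 7.18, 8.78 and 8.75 FPKM in young AL mice. It was at 9.18, 11.6 and 9.10 FPKM in aged CR mice, against 7.27, 4.31 and 7.96 FPKM in aged AL mice. The diets did not overlap at either age, although in young mice the lowest CR value and the highest AL value lay close together. The log2 difference was 0.23 (standard error 0.18) in young mice and 0.58 (standard error 0.18) in aged mice, with an interaction of 0.35 (standard error 0.26). Aged AL mouse 14 decided much of this: without it the aged difference was 0.34 and the interaction 0.11. The adipocyte sums given for Igfbp3 separated the diets in the same mice, and mouse 14 had the lowest stromal sum. For 7 macrophage markers the mean log2 deviation, from each gene's mean over the 12 mice, was taken. In aged mice it was 0.261 to 0.286 under CR, against -0.243 to -0.021 under AL. The macrophage sums overlapped, at 515.7 to 725.4 FPKM under CR, against 384.4 to 704.7 FPKM under AL. Their part in the Igf1 difference was not tested.
The receptors were close to level. Igf1r, the tyrosine kinase receptor of IGF-I, was at 3.40, 3.53 and 4.89 FPKM in young CR mice, against 4.25, 4.14 and 3.49 FPKM in young AL mice. Aged CR mice had 3.76, 3.60 and 3.81 FPKM, against 3.67, 2.99 and 4.09 FPKM in aged AL mice. CR and AL overlapped at both ages, and the log2 differences were -0.02 (standard error 0.13) and 0.05 (standard error 0.13). Without aged AL mouse 14, the lowest, the aged difference was -0.05, and in young mice leaving out 1 mouse at a time gave -0.15 to 0.06. Igf2r, which clears IGF-II and sorts lysosomal enzymes, averaged 2.84 ± 0.197 FPKM in young CR and 2.45 ± 0.184 in young AL mice without overlap. In aged mice it averaged 2.87 ± 0.392 FPKM under CR and 2.76 ± 0.139 under AL, with overlap (SD, n = 3 each). Its log2 differences were 0.15 (standard error 0.09) and 0.04 (standard error 0.09). The aged value was 0.12 with aged CR mouse 5 left out and -0.02 when mouse 7 of that group was.

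Igfbp5 followed another order. IGFBP-5, the binding protein most tightly held in bone mineral and matrix, had transcript levels of 26.3, 25.1 and 23.7 FPKM in young CR mice, against 18.3, 15.9 and 18.0 FPKM in young AL mice. Aged CR mice had 21.5, 34.0 and 34.7 FPKM, against 30.7, 33.2 and 27.2 FPKM in aged AL mice. Young AL mice stood below all other mice, and the aged diets overlapped. CR exceeded AL by 0.50 (standard error 0.16) on the log2 scale in young mice, while the aged difference was -0.04 (standard error 0.16), with an interaction of -0.54 (standard error 0.22). By age, aged AL mice exceeded young AL mice by 0.77 without overlap, and aged CR mice exceeded young CR mice by 0.22 with overlap. Over both diets the age difference was 0.50 (standard error 0.11). Aged CR mouse 5 was the lowest aged mouse, and without it the aged diet difference was 0.18 and the interaction -0.33. Some tissue markers moved with each contrast. Between the young diets, the osteoblast and osteocyte sum was 1013 to 1488 FPKM under CR, against 1699 to 2373 FPKM under AL. Of its 12 markers, 5 were higher on average under CR. The mean log2 deviation of this list overlapped, at 0.008 to 0.346 under CR, against 0.248 to 0.527 under AL. The 4 B cell markers summed to 116.4 to 135.5 FPKM under CR, against 183.4 to 225.1 FPKM under AL. The 10 endothelial markers had a mean log2 deviation of 0.036 to 0.072 in young CR mice, against -0.125 to -0.085 in young AL mice. Of these markers, 8 were higher on average under CR. Their sums overlapped, at 97.6 to 105.9 FPKM under CR, against 88.5 to 103.6 FPKM under AL. The adipocyte sums were apart as given for Igfbp3. By age, 6 chondrocyte markers summed to 21.8 to 43.3 FPKM in aged mice, against 61.9 to 90.3 FPKM in young mice, without overlap. The osteoblast and osteocyte sum was 529.4 to 1938 FPKM in aged AL mice, against 1699 to 2373 FPKM in young AL mice. Aged AL mouse 14 set the lowest aged value of both sums. The 5 muscle markers were all higher on average in aged mice (median log2 difference 0.79), in overlapping groups. Their part in the Igfbp5 difference was not tested.
Igfbp4, whose protein mainly inhibits IGF action and is cut by the protease PAPP-A, was at 87.2, 94.0 and 83.7 FPKM in young CR mice, against 68.1, 72.7 and 78.7 FPKM in young AL mice. Aged CR mice had 74.0, 78.2 and 87.6 FPKM, against 87.7, 47.1 and 88.6 FPKM in aged AL mice. The young diets did not overlap (log2 difference 0.27, standard error 0.20). The aged difference was 0.15 (standard error 0.20), and without aged AL mouse 14 it turned to -0.14. The mean log2 level of several marker lists varied with Igfbp4. After subtracting group means, its Pearson r over the 12 mice was 0.89 with B cell markers, 0.86 each with stromal and osteoblast markers and 0.85 with endothelial markers, as a description in which mouse 14 is the lowest of its group each time. Between the young diets, where Igfbp4 did not overlap, the stromal sums did, at 504.1 to 618.5 FPKM under CR, against 487.3 to 539.9 FPKM under AL. The B cell markers and the osteoblast sum were lower under CR, the opposite of Igfbp4. As given for Igfbp5, the osteoblast list was apart by sum only. The endothelial list, higher under CR, was apart by mean log2 deviation only. The adipocyte list, also higher under CR, was apart by sum, as given for Igfbp3, and by mean log2 deviation. That deviation was 0.174 to 0.688 under CR, against -0.759 to -0.62 under AL. After subtracting group means, its r with Igfbp4 was 0.77. The part of these lists in the Igfbp4 difference was not tested. In mouse 14 the ratio of Igfbp5 to Igfbp4 was 0.705, against 0.219 to 0.434 in the other 11 mice.
Igfbp6, whose protein prefers IGF-II, was at 3.48, 3.69 and 4.13 FPKM in aged CR mice, against 6.10, 4.25 and 6.01 FPKM in aged AL mice. This was the only tested member lower under CR without overlap, with a log2 difference of -0.43 (standard error 0.22). In young mice the groups overlapped at 5.14 ± 1.6 FPKM under CR and 4.57 ± 1.34 under AL, and the interaction was -0.56 (standard error 0.32). The young difference of 0.14 ran from -0.08 without young AL mouse 10 to 0.37 without young CR mouse 3, and the interaction was -0.35 without young AL mouse 10. Igfbp2, whose expression in liver rises on fasting, was the least abundant member. It was at 0.354, 0.397 and 0.399 FPKM in aged CR mice, against 0.491, 0.980 and 0.463 FPKM in aged AL mice, without overlap and with aged AL mouse 14 the highest. In young mice it averaged 0.715 ± 0.188 FPKM under CR and 0.944 ± 0.145 under AL, with overlap. The aged CR mice were also below all young CR mice. The RNA of Igfbp7, a secreted protein of vessels and stroma that binds IGF only weakly, was close to level in the group means. It averaged 59.2 ± 3.24 FPKM in young CR and 59.9 ± 0.602 in young AL mice, and 61.1 ± 4.23 FPKM in aged CR and 63.0 ± 10.3 in aged AL mice (SD, n = 3 each). Its log2 differences between diets were -0.02 and -0.03 (standard error 0.11 each). Aged AL mouse 14 had 51.2 FPKM, against 69.9 and 68.0 FPKM in the other aged AL mice, and without it the aged difference was -0.17.

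**Figure D3:**
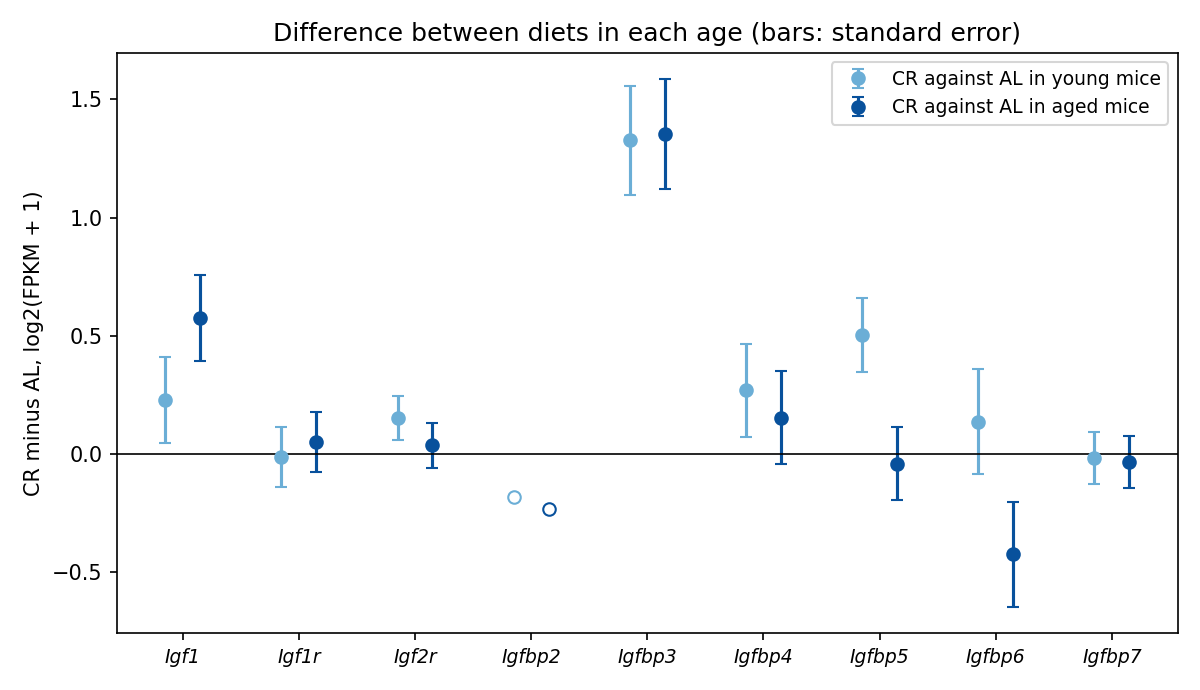
CR minus AL on the log2(FPKM + 1) scale (y axis) for the 9 genes (x axis) in young and aged mice, with bars of 1 standard error from limma and open circles for Igfbp2, which was below the filter and has no error. Igfbp3 stands at 1.33 and 1.35, Igf1 at 0.23 and 0.58, Igfbp5 at 0.50 and -0.04, and Igfbp6 at 0.14 and -0.43.

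With limma and a Benjamini-Hochberg adjusted p under 0.05 over all genes tested, 1 of the 8 tested members passed for diet over both ages. This was Igfbp3, higher under CR by 1.34 (standard error 0.16), in a comparison where 35 of 13590 genes (0.258%) passed. With no filter on low genes this call was lost (adjusted p = 0.065 from limma, for Igfbp3). None of the 8 passed in young mice, where 0.0662% of genes did, in aged mice (0% of genes), for age over both diets (0.758%) or for the interaction (0%). Before adjustment (p under 0.05), 2 members passed in young mice (Igfbp3 and Igfbp5) beside 11% of genes, and 2 in aged mice (Igf1 and Igfbp3) beside 7.72%. For diet over both ages these were Igf1 and Igfbp3 beside 13.9% of genes, for age Igfbp3 and Igfbp5 beside 16.6%, and Igfbp5 for the interaction, beside 4.23%. Without overlap between diets, 5 members were higher in young CR mice (10.1% of genes), 2 were higher (5.7%) and 1 lower (5.33%) in aged CR mice, and Igf1 and Igfbp3 were higher at both ages (1.53%). Igf2r and Igfbp5 were higher in aged than in young AL mice without overlap (5.59%). The median log2 difference of the 8 was 0.19 in young and 0.04 in aged mice, against 0.01 and 0.00 over all genes tested. Since these contrasts led to the choice of the family, nothing is read from the counts.
Single mice changed the counts. Without aged CR mouse 5, Igfbp3 passed in young and in aged mice, Igfbp3 and Igfbp5 passed for diet, and Igfbp5 passed for age. Without aged AL mouse 14, Igfbp3 passed in young mice. The spread is estimated over all 4 groups, which is how an aged mouse bears on a young comparison.

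The growth hormone pathway upstream of Igf1 was taken from a list of 6 genes, all tested, and none passed in any of the 5 comparisons. Ghr, the growth hormone receptor, was at 8.37, 10.9 and 8.81 FPKM in young CR mice, against 5.05, 4.97 and 5.42 FPKM in young AL mice. It was at 6.21, 12.4 and 11.5 FPKM in aged CR mice, against 6.78, 3.67 and 5.70 FPKM in aged AL mice. The young diets did not overlap, and aged CR mouse 5 fell among the aged AL mice. The log2 difference for diet over both ages was 0.76 (standard error 0.17, adjusted p = 0.0793 from limma), and without aged CR mouse 5 Ghr passed. The adipocyte sums separated the diets here too, and their part was not tested.
Socs2, a feedback inhibitor of the receptor, averaged 3.22 ± 0.517 FPKM in young CR and 4.08 ± 0.508 in young AL mice, and 2.82 ± 0.345 FPKM in aged CR and 3.85 ± 0.603 in aged AL mice (SD, n = 3 each). The aged groups did not overlap, and the log2 difference for diet was -0.31 (standard error 0.09, adjusted p = 0.171 from limma). Stat5b itself differed by -0.16 (standard error 0.05, adjusted p = 0.181 from limma). Cish, a second inhibitor, was at 1.68, 1.28 and 1.59 FPKM in aged CR mice, against 2.14, 10.1 and 2.71 FPKM in aged AL mice, with the highest value in mouse 14. For age its log2 difference was 0.68 (standard error 0.26, adjusted p = 0.222 from limma), or 0.40 without mouse 14, an alternative chosen after seeing the data. Jak2, the kinase bound to the receptor, differed by 0.10 for age and by -0.10 for diet (adjusted p = 0.47 and 0.534 from limma). Of these genes Ghr had higher means under CR at both ages, and Socs2, Stat5b, Cish and Jak2 had lower ones, with none past the threshold.

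**Figure D4:**
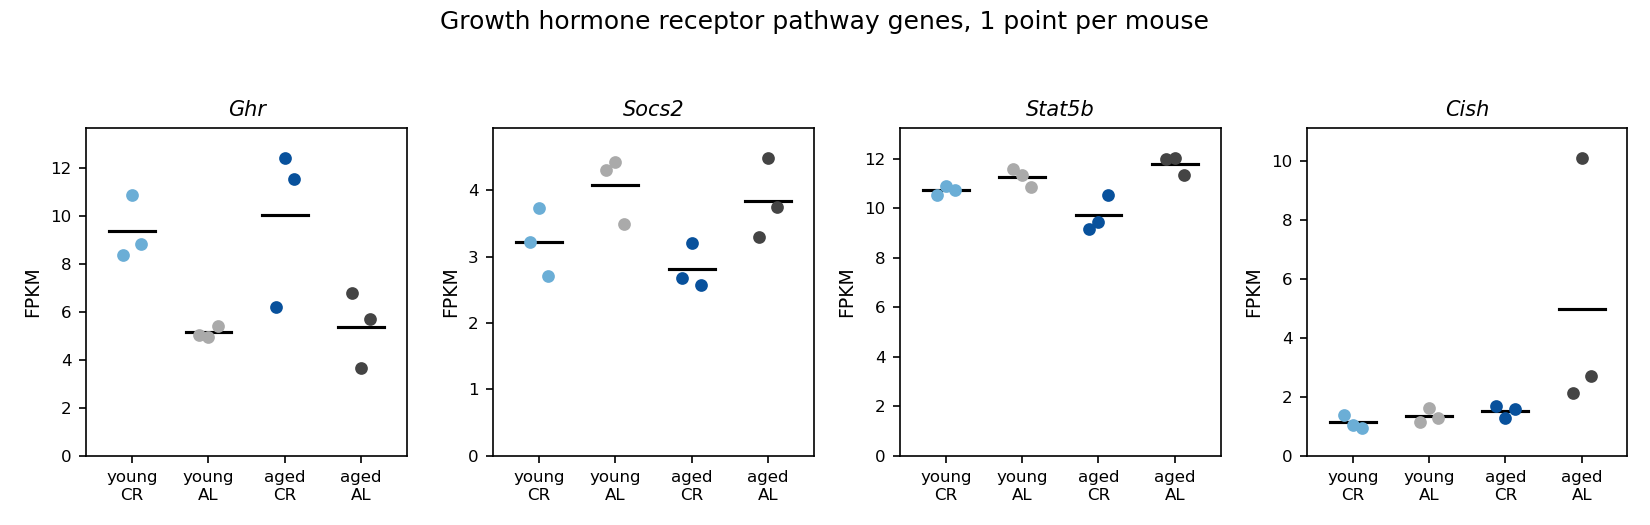
FPKM (y axes, starting at 0) of Ghr, Socs2, Stat5b and Cish in young CR, young AL, aged CR and aged AL mice, with 1 point per mouse and a line at the group mean. Ghr averages 9.36 and 5.14 FPKM in young CR and young AL mice and 10.1 and 5.38 FPKM in aged CR and aged AL mice, with aged CR mouse 5 at 6.21, and Socs2 is lower under CR in the means of both ages.

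Of 10 other genes that set how much IGF is available, 8 were in the table and 3 were tested, and none passed. Igf2, the second ligand, averaged 1.61 ± 0.372 FPKM in young CR and 1.34 ± 0.185 in young AL mice, and 2.34 ± 0.444 FPKM in aged CR and 1.96 ± 0.471 in aged AL mice (SD, n = 3 each). Its age difference was 0.35 on the log2 scale (standard error 0.11, adjusted p = 0.166 from limma). Igf1 was 2.99 to 7.96 times as abundant as Igf2 over the 12 mice. Htra1, a secreted protease, differed by -0.24 and Adam12, a protease that cuts binding proteins, by -0.18 for age (adjusted p = 0.369 and 0.358 from limma).
Igfals encodes the acid-labile subunit that joins IGF and IGFBP-3, and it was below the filter. It was at 0.609, 0.478 and 0.494 FPKM in young CR mice, against 0.147, 0.151 and 0.353 FPKM in young AL mice. In aged mice it was at 0.189, 0.588 and 0.645 FPKM under CR, against 0.253, 0.238 and 0.275 FPKM under AL. The young groups did not overlap, and aged CR mouse 5 was below all aged AL mice, as it was the lowest CR mouse for Igfbp3. The gene was singled out after its values were seen.
None of the 3 genes of IGF mRNA-binding proteins reached the filter. Of 24 genes of IGF and insulin receptor signaling, 23 were tested and none passed. Grb14, an adaptor that dampens insulin receptor signaling, had a log2 difference of 0.25 for diet (standard error 0.07, adjusted p = 0.129 from limma) and of -0.24 for age (standard error 0.07, adjusted p = 0.126). Tsc2, a brake on mTOR, differed by 0.12 for diet (adjusted p = 0.377 from limma). For age, Irs2, a docking protein of the receptors, differed by 0.36 (standard error 0.10, adjusted p = 0.127 from limma). Over the 32 tested genes of the 4 lists, of 43 named, the median log2 difference was -0.04 in young and -0.05 in aged mice, against 0.01 and 0.00 over all genes tested.

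Across the 12 mice, members varied together in part. The log2 values of Igfbp4 and Igfbp7 had a Pearson r of 0.68, or 0.89 after subtracting group means, and those of Igf1 and Igfbp4 of 0.78, or 0.85. The r of Igf1 and Igfbp3 was 0.78, or 0.52 within groups. Igfbp5 did not follow Igfbp4 (r of 0.02). These correlations are descriptions over 12 mice that share groups and, for the first pairs, the low values of aged AL mouse 14.
The tested genes most like Igfbp3 were Mgme1 (a mitochondrial exonuclease, r of 0.96), Timp4 (an inhibitor of metalloproteinases, 0.96) and Cdo1 (cysteine dioxygenase, 0.94). Those most like Igf1 were Marc1 (a mitochondrial reductase, 0.95), Il18 (a cytokine of macrophages, 0.94) and Cd63 (a lysosomal tetraspanin, 0.92). For Igfbp5 they were Plin4 (a lipid droplet protein, 0.90), Dag1 (dystroglycan, 0.90) and Bex1 (0.88), and for Igfbp4 Crtap (a collagen-modifying factor, 0.94), Cyp4b1 (a cytochrome P450, 0.93) and Gas6 (a ligand of TAM receptors, 0.93). Igfbp7 was closest to Peg13 (0.94), Wbp2 (0.93) and R3hdm4 (0.93), Igfbp6 to Trip6 (0.86), Adrm1 (0.84) and Dkk3 (0.82), and Igfbp2 to Zbtb18 (0.94), Atp5f1 (0.93) and Rpl22l1 (0.92). Igf1r was closest to Adpgk (0.89), Cd164 (0.88) and Mboat7 (0.87), and Igf2r to Lrp5, Adgrf5 and Camsap1 (0.91 each). Each r was picked as one of the highest over all tested genes in 12 mice and has no test. After subtracting group means, the r with Igfbp3 was 0.62 for Mgme1, 0.75 for Timp4 and 0.83 for Cdo1. With Igfbp5 it was 0.70 for Plin4, 0.66 for Dag1 and 0.805 for Bex1. For the genes named beside the other members it was 0.84 (Dkk3) or more.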

How the data were processed

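Stranded mRNA libraries of whole tibia were made by the authors. Per the labels and the study's methods, reads were checked (FastQC 0.11.8, MultiQC 1.6), trimmed (Trim Galore 0.5.0), mapped to mm10 (STAR 2.6.1) and quantified per gene (StringTie 2.1.3b). The deposited FPKM values had been quantile normalized by the authors (R 4.1.1). At each rank, mice differed by no more than 0.00936 FPKM, so a change in total mRNA cannot be seen. No read counts were analysed, and depth is unknown.
Here, values were taken as log2(FPKM + 1). The 13590 genes averaging 1 FPKM or more were fitted with 4 group means in limma 3.58.1 (R 4.3.3; mean-dependent prior, Benjamini-Hochberg adjustment), a fit tested on simulated data. With 3 mice per group, an exact permutation test cannot go below p = 0.1. The labels give no batch, so none was modelled. Members and lists were chosen with earlier results of these data known. The genes named were all members, any list gene past the threshold, the 3 of each list with the smallest p for diet and for age, and the 3 non-members most like each member. Some genes under this rule are not reported here. A name altered by a spreadsheet was restored as Marc1 from its identifier. Alternatives were another pseudocount, no filter, median-of-ratios scaling, quality weights, 2-group fits, an unequal-variance test, and mice left out.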

Additional observations from a re-analysis of the deposited data

How the results depend on the processing

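The count of the 8 tested IGF genes past the threshold depended on the setting. With a quality weight per mouse it was 2 in young mice (Igfbp3 and Igfbp5), 1 for aged CR against aged AL mice, 2 for diet over both ages and 1 for age. With mouse 14 of the aged AL group and mouse 5 of the aged CR group both left out, it was again 2 in young mice and 2 for diet, and 1 in aged mice and 1 for age. In young mice it was 1 in a fit of only those 2 groups and 3 by an unequal-variance test on FPKM without adjustment (Igfbp3, Igfbp4 and Igfbp5). With no filter it was 0 for diet, where Igfbp3 had an adjusted p of 0.065 from limma. Leaving out 1 mouse at a time gave 1 to 2 for diet, 0 to 1 in young mice, 0 to 1 in aged mice and 0 to 1 for age. For the interaction it was 0 under each alternative run. Calls over all genes also rose with quality weights, as given below, and are not reported here for the other settings. Nothing is read from these counts of members.
Of the other pathway genes, quality weights gave 2 for diet (Ghr and Grb14) and 3 for age (Igf2, Irs2 and Grb14). With both mice left out 1 gene passed, Ghr, in the comparisons of young mice, of aged mice and of both ages. In young mice the fit of only 2 groups gave 1 (Ghr) and the unequal-variance test 2 (Ghr and Grb14), and in aged mice that test gave 1 (Stat5b). Leaving out 1 mouse at a time gave 0 to 1 for diet. Over all genes, quality weights gave 304 calls in young mice, against 9, and 923 for diet, against 35.
The cause of these changes was not tested. Of 701 alternative values for the members' 45 differences, 652 kept their sign and 8 moved by over 1 SD. Igfbp3 for diet over both ages stayed between 1.26 and 1.59 and passed under 16 of 17 alternatives. Igfbp3 values were among those behind the choice of the family, and the alternatives reuse the same mice. This range is therefore a description and no separate support. No paired analysis was possible because the table has 1 column per mouse and the groups share no mouse number, since the numbers shared in the labels are technical repeats. The study calls the AL mice littermates, but no label says which mice share a litter.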
